A study of Bos taurus with 54 samples.

Results

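The libraries described here are the thermoneutral blood libraries of 12 Holstein male calves, each prepared with 2 kits for 3′ mRNA-Seq, Lexogen QuantSeq 3′ and Takara SMART-Seq v4 3′ DE. They were chosen by label, as the animals with a library of each kit under the treatment Normal at 6AM, and make up 24 of the 54 libraries of the series. Animals 15 and 29 had a thermoneutral library of only 1 kit and were not used. The calves were housed in climate control rooms and had not yet been exposed to heat. The labels give no genetic change or drug, and the age of the calves is not given in the sources used here. Blood was depleted of red cells with an ammonium chloride lysis buffer before RNA extraction, and the same RNA of each animal went into both kits. The libraries of each kit were pooled separately for sequencing, so the kit and the pool cannot be told apart.

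Both kits prime cDNA synthesis from the poly(A) tail and count a read near the end of the transcript, so that a transcript gives about the same number of reads whatever its length. They differ in how the tagged ends are made: the Takara chemistry copies full-length cDNA by template switching and amplifies it before the ends are cut out, whereas the Lexogen chemistry primes the second strand at random along the first. Lysed blood holds mostly neutrophils and lymphocytes, with monocytes, platelets and remaining red cell precursors, and its transcriptome is led by actin and thymosin, ribosomal proteins, calgranulins and mitochondrial transcripts.

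The ribosomal RNA rows RN18S1, LOC112444653, KEH36_r01 and KEH36_r02 held 2.63 to 12.4% of the gene counts with Takara and 23.4 to 40.6% with Lexogen, and were left out of everything below. Without them the libraries held 4503128 to 19657658 counts on genes with Takara and 4365643 to 9099747 with Lexogen. Levels are given as CPM, the counts scaled to a library total of 1000000 of this remainder, with library sizes adjusted by the trimmed mean of M-values. The markers of leukocytes were present with both kits. PTPRC (CD45) ranged from 400.4 to 604.6 CPM with Takara and from 1622 to 2797 CPM with Lexogen, and the B cell marker MS4A1 from 240.3 to 411.9 and from 186.2 to 624.1 CPM (here on unscaled totals). LAPTM5, a lysosomal protein of leukocytes, had a median of only 8.75 CPM with Takara and 0.387 CPM with Lexogen. The liver, islet, muscle and glial markers ALB, INS, MYH7 and GFAP stayed at or below 1.80 CPM in every library, and the epithelial marker KRT5 was at 0 in all Takara libraries and reached 14.9 CPM in a Lexogen library.

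The Lexogen libraries of animals 19 and 16 stood apart. A set of 12 genes of epithelium and the early embryo was chosen after their values were seen. It held keratins, claudins, EPCAM, CDH1, FOLR1, SLC39A4 and the embryo factors POU5F1, ZFP42 and NANOG. These genes summed to 7462 CPM in the Lexogen library of animal 19 and to 1202 CPM in that of animal 16. Their sums were 2.53 to 45.7 CPM in the other 10 Lexogen libraries and 1.01 to 6.15 CPM in the 12 Takara libraries. The Takara libraries of the same animals 19 and 16 held 2.56 and 1.01 CPM. KRT8, an epithelial keratin, had 35430 counts in the Lexogen library of animal 19 and 2560 in that of animal 16, and POU5F1, a factor of pluripotent cells, had 1627 and 307. Both genes were at 0 in the Takara libraries of these animals. The share of gene counts on the annotated strand was 84.6% in the Lexogen library of animal 19 and 90.8% in that of animal 16, compared with 91.3 to 93.4% in the others. The Lexogen library of animal 14 held the fewest genes with a count (10927), and 12 genes in it, at 20 CPM or more, were over 10 times every other library, against 62 in that of animal 19 and 10 in that of animal 16. The part of these 3 libraries in the results was not tested beyond leaving them out. Without animals 16 and 19, no median of the 26 gene lists changed sign and none moved by more than 0.24 on the log2 scale.

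**Figure D1:**
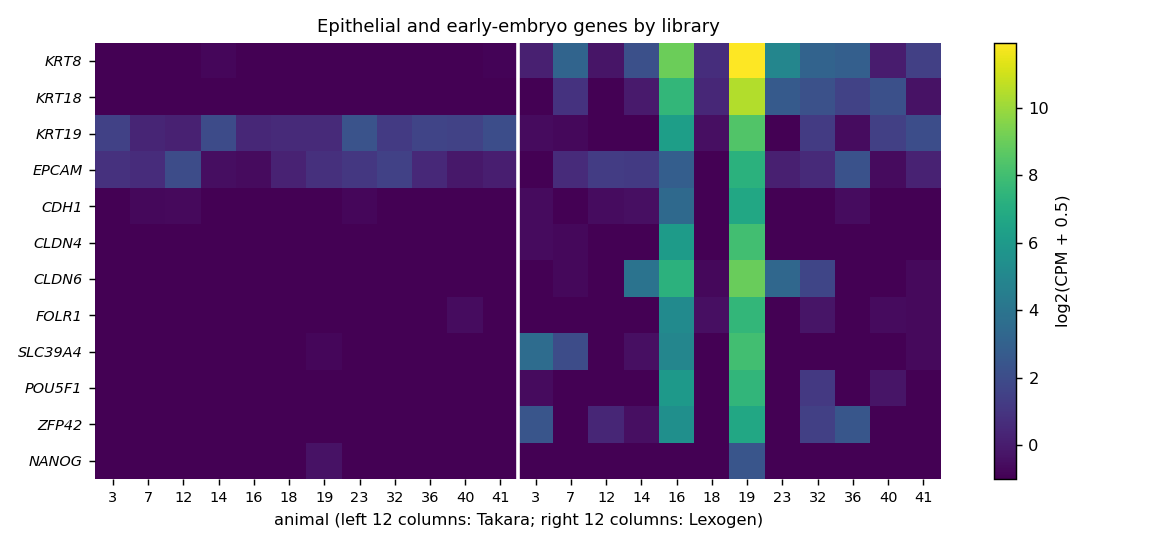
Levels of 12 epithelial and early-embryo genes, as log2(CPM + 0.5) by colour, with a row for each gene and a column for each library. The Lexogen columns of animals 16 and 19 are bright for nearly all genes (1202 and 7462 CPM in sum), and all Takara columns are dark (at most 6.15 CPM in sum).

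The question was which genes each kit favoured in the same RNA. Of 32633 genes, 12055 had enough counts to be tested and held 99.5% of the counts. Each was compared between the kits within animals, and differences are given as the log2 ratio of Takara over Lexogen with its standard error, so that positive values are higher with Takara. At an adjusted p under 0.05 (edgeR quasi-likelihood test with the animal as a block, Benjamini-Hochberg adjustment), 4343 genes (36%) were higher with Takara and 3507 genes (29.1%) were higher with Lexogen. Differences past 2-fold, tested against that size, were found for 2574 genes (21.4%) higher with Takara and 1521 genes (12.6%) higher with Lexogen. The libraries of the kits did not overlap for 2426 genes (20.1%), of which 1344 (11.1%) were above with Takara and 1082 (8.98%) with Lexogen. Takara thus had 62.9% of the calls past 2-fold, 75.2% of them with DESeq2 and 53.4% without the animal as a block. With all libraries thinned to equal counts its share was 60.8% (2336 genes with Takara and 1507 with Lexogen). The filter on low counts was set by kit, so a gene could be tested on the counts of a single kit. At 5% the share of Takara was 55.3%, and 47.8% without the block, where Lexogen had more calls (3978 against 3642). The median log2 ratio of all genes was 0.21. Over the genes of each alternative it lay between -0.07 without the animal as a block and 0.54 without a filter on low counts, where 23134 genes were kept. On the genes of the main test alone it was 0.29 without the filter, and highest with DESeq2, at 0.38. It moved to 0.16 with library totals as the scale. The values of genes and groups below are to be read against this median. Counts of called genes in a list are to be read against the shares of all genes. At 5% these were 36% with Takara and 29.1% with Lexogen, and past 2-fold 21.4% and 12.6%. Without animals 16 and 19, 2596 and 1357 genes were past 2-fold higher with Takara and Lexogen.

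Among abundant genes, those with a mean of at least 100 CPM over the 24 libraries, the calls past 2-fold were split nearly evenly in the main edgeR fit. They were not with DESeq2 (435 with Takara and 279 with Lexogen). Among the edgeR alternatives the split was 422 and 424 with library totals. It was less even without a filter (443 and 350), in the second run of sample numbers (413 and 325) and without animals 16 and 19 (446 and 375). Of these 1844 genes, 763 (41.4%) were higher with Takara and 848 (46%) with Lexogen at 5%, and 587 (31.8%) were higher with Takara in 12 of 12 animals and 664 (36%) with Lexogen. Past 2-fold, 428 (23.2%) were higher with Takara and 400 (21.7%) with Lexogen. The 12 libraries of a kit did not overlap those of the other for 792 genes (43%), 376 (20.4%) higher with Takara and 416 (22.6%) higher with Lexogen. Abundant genes made up a median of 74.2% of the normalised counts with Takara and 73.1% with Lexogen.

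**Figure D2:**
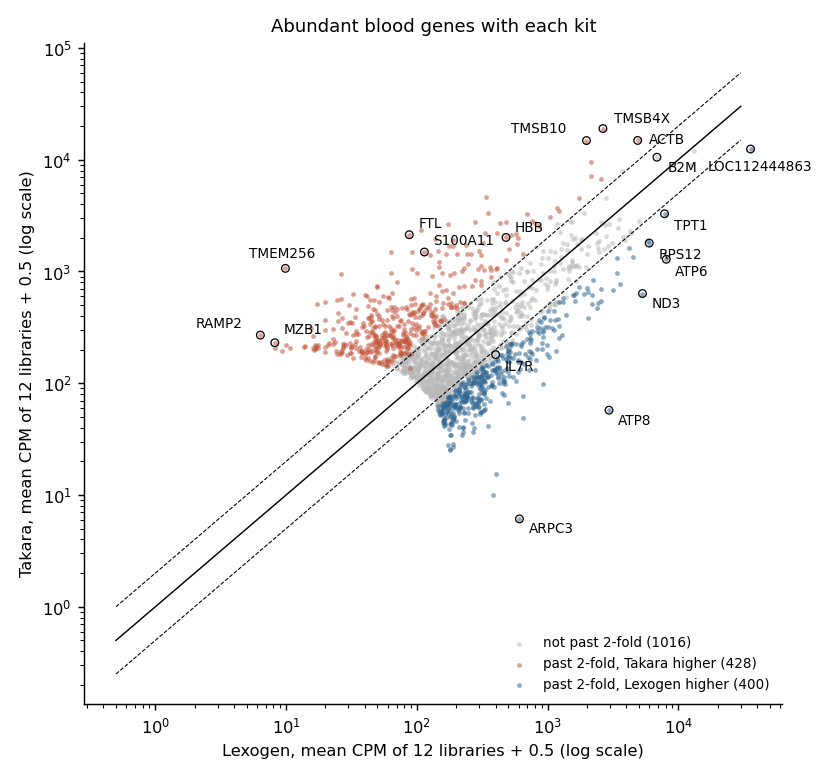
Mean level of the 1844 abundant genes with Lexogen (x axis) and with Takara (y axis), in CPM + 0.5 on log scales, each the mean of 12 libraries. The solid line marks equal levels and the dashed lines a 2-fold difference. The genes past 2-fold form wide wings on either side (428 and 400 genes), with TMEM256 and RAMP2 farthest out on the Takara side and ARPC3 and ATP8 on the Lexogen side.

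The most abundant genes changed order between the kits. Of the 10 genes with the highest mean CPM with each kit, 4 were shared, and of the highest 100 genes 54 were shared. CPM of 3′ counts are not divided by transcript length, as each transcript is counted at its end. TMSB4X, which encodes thymosin β4, a protein that holds actin monomers, ranked first with Takara and 33rd with Lexogen. ATP6, a mitochondrial subunit of ATP synthase, ranked 4th with Lexogen and 105th with Takara.

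Actin and the proteins that bind its monomers or filaments were higher with Takara. TMSB4X (chrX:130698921-130700970, ARS-UCD2.0) ranged from 15978 CPM over a median of 18596 to 25666 CPM with Takara and from 2008 over 2570 to 3200 CPM with Lexogen. All 12 Takara libraries were above all 12 Lexogen libraries, at a log2 ratio of 2.85 ± 0.08 (SE, n = 12 pairs; edgeR adjusted p = 2.34e-13), which is 7.19-fold. TMSB10, the related thymosin β10, ranged from 11455 over 15191 to 16870 CPM with Takara and from 859.7 over 1652 to 3872 CPM with Lexogen. Its log2 ratio was 3.07 ± 0.19 and the groups did not overlap either. ACTB, cytoplasmic β-actin, ranged from 12300 over 14627 to 18870 CPM with Takara and from 3463 over 4567 to 8161 CPM with Lexogen, a log2 ratio of 1.63 ± 0.13 without overlap. COTL1, which binds actin filaments, had a log2 ratio of 1.37 ± 0.11. Of the 34 tested genes of the actin cytoskeleton, 22 were higher with Takara and 5 with Lexogen, with a median log2 ratio of 1.01 against 0.21 for all genes. Together they made up 7.01 to 8.88% of the normalised counts with Takara and 2.30 to 3.22% with Lexogen.

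ARPC3, a subunit of the Arp2/3 complex that branches actin filaments, went the other way. It ranged from 3.70 CPM over 5.49 to 7.26 CPM with Takara and from 433.7 over 497.9 to 1004 CPM with Lexogen (chr17:54326083-54336891). The log2 ratio of -6.72 ± 0.19 (edgeR adjusted p = 2.34e-13) was the most negative among abundant genes, and all 12 Lexogen libraries were above all Takara libraries.

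A further group of highly abundant genes was higher with Lexogen. LOC112444863, an annotated long noncoding RNA (chr29:43631566-43680266), ranged from 6419 CPM over 10038 to 22483 CPM with Takara and from 24086 over 31815 to 49672 CPM with Lexogen. The groups did not overlap and the log2 ratio was -1.60 ± 0.11. Only 0.164% of its Takara counts and 0.0522% of its Lexogen counts lay on the annotated strand, so nearly all of its reads came from the opposite strand of this locus, and on the annotated strand alone the log2 ratio was 2.73. TPT1, the translationally controlled tumour protein, ranged from 2478 over 2921 to 5722 CPM with Takara and from 6063 over 7679 to 11422 CPM with Lexogen, a log2 ratio of -1.28 ± 0.10 without overlap.

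The kits overlapped for 3 further highly abundant genes. B2M, the light chain of MHC class I (chr10:103095506-103103791), ranged from 8575 CPM over 10404 to 12689 CPM with Takara and from 3885 over 6694 to 12386 CPM with Lexogen. It was higher with Takara in 11 of 12 animals, at a log2 ratio of 0.69 ± 0.13 (edgeR adjusted p = 0.000144). LOC783680, a protein-coding gene beside B2M (chr10:103116475-103122698), had a median of 10996 CPM with Takara and 12874 CPM with Lexogen, at a log2 ratio of -0.15 ± 0.08 (edgeR adjusted p = 0.11). LOC508666, a protein-coding gene on chromosome 19, had a log2 ratio of -0.44 ± 0.11 and was higher with Lexogen in 10 of 12 animals, a call that was lost without the animal as a block (edgeR adjusted p = 0.0706), with DESeq2 (adjusted p = 0.0557) and in the second run of sample numbers (edgeR adjusted p = 0.0514).

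**Figure D3:**
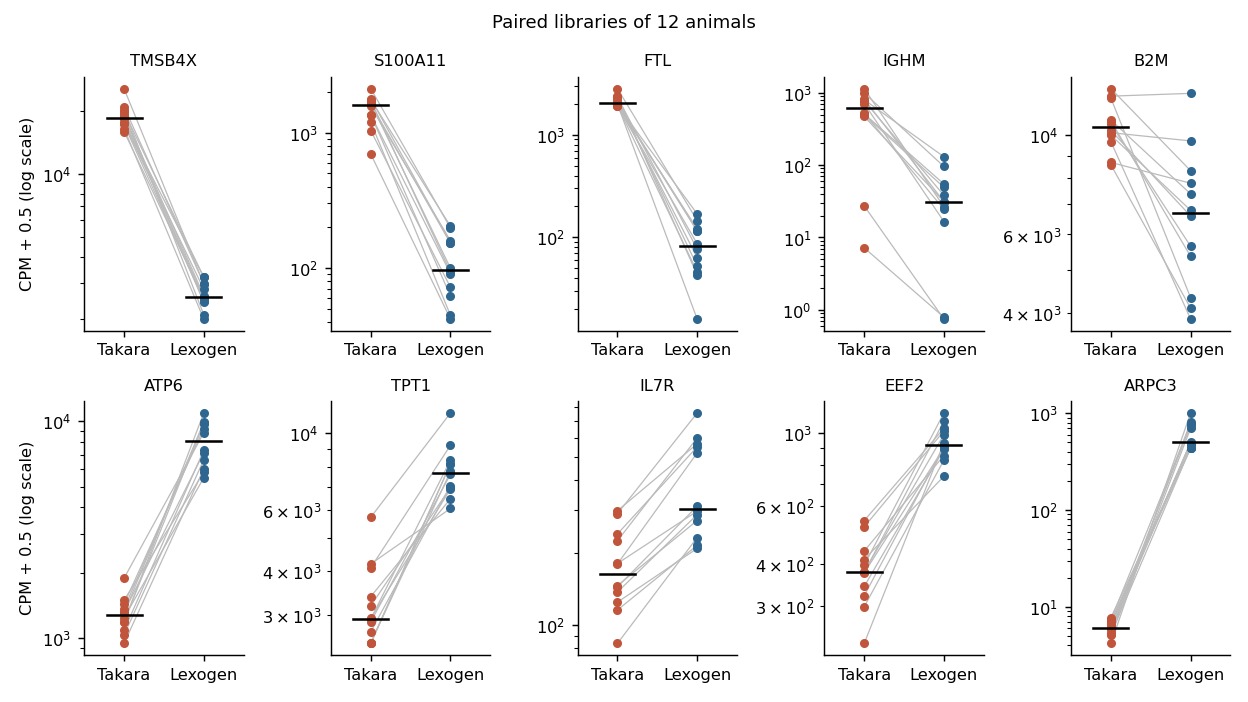
Levels of 10 genes in the 12 Takara and 12 Lexogen libraries, in CPM + 0.5 on a log scale, where grey lines join the libraries of an animal and black bars mark medians. TMSB4X, S100A11 and FTL fell from Takara to Lexogen and ATP6, TPT1, EEF2 and ARPC3 rose in all 12 animals without overlap of the kits, whereas the B2M libraries overlapped.

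The 10 named abundant genes farthest on the Takara side were past 2-fold in the same direction in all 12 animals, as the choice required, and their log2 ratios ran from 4.67 to 7.05. TMEM256, which encodes a small membrane protein (chr19:27081977-27083126), ranged from 826.7 CPM over 1092 to 1283 CPM with Takara and from 0 over 9.82 to 23.9 CPM with Lexogen. Its log2 ratio was 7.05 ± 0.44, and 1 Lexogen library held no count of it. MZB1, a chaperone of antibody-secreting B cells, had a median of 184.5 CPM with Takara and 4.28 CPM with Lexogen (log2 ratio 5.54 ± 0.61). The receptor partner RAMP2 had medians of 268.0 and 6.39 CPM (log2 ratio 5.51 ± 0.19). For all of them the lowest Takara library was above the highest Lexogen library. PPP4C, the catalytic subunit of protein phosphatase 4, had a median of 938.3 CPM with Takara and 21.2 CPM with Lexogen. VPS28, of the ESCRT-I complex that sorts membrane proteins, had medians of 531.7 and 13.1 CPM. GNLY, the antimicrobial protein granulysin of cytotoxic lymphocytes, had medians of 178.8 and 7.01 CPM. FTL, the ferritin light chain that stores iron, ranged from 1901 over 2025 to 2817 CPM with Takara and from 15.5 over 81.1 to 168.7 CPM with Lexogen, a log2 ratio of 4.81 ± 0.27. The other genes were CZIB, SERF2 and PHPT1, with log2 ratios of 5.43, 4.69 and 4.67. CZIB and GNLY were at 0 in 2 Lexogen libraries each and PHPT1 in 1.

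The 10 genes farthest on the Lexogen side, chosen in the same way, had log2 ratios from -6.72 to -2.73. Besides ARPC3 they held 3 transcripts of the mitochondrial genome, ATP8, ND3 and the tRNA row KEH36_t22, described below. ITM2C, a membrane protein of the BRICHOS family, ranged from 20.2 CPM over 36.5 to 62.5 CPM with Takara and from 196.0 over 268.2 to 860.1 CPM with Lexogen, a log2 ratio of -3.08 ± 0.23. SPOCK2, a secreted proteoglycan, had medians of 33.9 and 233.3 CPM (log2 ratio -2.86 ± 0.14). UTP6, which takes part in ribosomal RNA processing, had medians of 25.3 and 185.4 CPM (log2 ratio -2.84 ± 0.11). These genes had low but nonzero levels with Takara, so that none was missed by the kit in any library. The transcriptional regulator SERTAD2, the nuclear import receptor TNPO1 and the translation initiation helicase EIF4A2 had log2 ratios of -2.81, -2.79 and -2.73. EIF4A2 lies across other annotated genes, among them RFC4 and MIR1248-1, and 93.3% of its Takara counts were on the annotated strand.

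Transcripts of the mitochondrial genome, which encode subunits of the respiratory chain and ATP synthase, were mostly higher with Lexogen. Of the 13 protein genes 11 were higher with Lexogen, 9 of them past 2-fold, and 1 was higher with Takara, with a median log2 ratio of -1.65 against 0.21 for all genes. Together they made up 1.5 to 2.33% of the normalised counts with Takara and 2.63 to 5.18% with Lexogen, higher with Lexogen in all 12 animals. ATP6 (chrMT:8290-8970) ranged from 940.0 CPM over 1268 to 1883 CPM with Takara and from 5484 over 8106 to 10940 CPM with Lexogen, a log2 ratio of -2.64 ± 0.11 without overlap. ATP8, which overlaps the start of ATP6, ranged from 7.27 over 22.7 to 229.3 CPM with Takara and from 2022 over 2846 to 3957 CPM with Lexogen, a log2 ratio of -6.70 ± 0.58. A read that overlaps more than 1 gene is not counted by STAR. ND3, a subunit of complex I, had medians of 613.6 and 4917 CPM and a log2 ratio of -3.12 ± 0.20. The neighbour of ATP6 on the other side, COX3 (chrMT:8970-9750), went the other way. It ranged from 5015 over 8165 to 10030 CPM with Takara and from 1795 over 3136 to 6572 CPM with Lexogen, and was higher with Takara in 12 of 12 animals at a log2 ratio of 1.18 ± 0.18. COX1 had a log2 ratio of -0.16 ± 0.13 (edgeR adjusted p = 0.32).

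All 9 tested mitochondrial tRNA rows were higher with Lexogen, 8 of them past 2-fold, of 22 annotated. Their median log2 ratio was -3.46. KEH36_t22 ranged from 40.7 CPM over 79.7 to 290.0 CPM with Takara and from 680.9 over 928.0 to 1574 CPM with Lexogen, a log2 ratio of -3.45 ± 0.18. Only 0.44% of its Takara and 1.89% of its Lexogen counts were on the strand of the tRNA. KEH36_t09 had a median of 0.0988 CPM with Takara and 77.1 CPM with Lexogen, a log2 ratio of -8.19 ± 0.55. KEH36_t12, which overlaps the last bases of COX1, lost its call on sense counts (log2 ratio -0.04), in the second run of sample numbers (edgeR adjusted p = 0.269) and without animals 16 and 19 (edgeR adjusted p = 0.0515).

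The nuclear genes of the respiratory chain showed the opposite balance to the mitochondrial ones. Of 91 tested genes 65 were higher with Takara, 45 of them past 2-fold, and 10 were higher with Lexogen, with a median log2 ratio of 1.38. COX4I1, a nuclear subunit of cytochrome c oxidase, ranged from 1219 CPM over 1422 to 1622 CPM with Takara and from 88.1 over 175.1 to 387.2 CPM with Lexogen. It did not overlap and had a log2 ratio of 3.00 ± 0.22. The catalytic subunit of ATP synthase ATP5F1B had medians of 799.2 and 191.7 CPM and a log2 ratio of 1.77 ± 0.12. ATP5F1A, the subunit beside it in the same enzyme head, had a log2 ratio of 0.60 ± 0.09 and the ATPase inhibitor ATP5IF1 one of 0.71 ± 0.09. The group made up 2.0 to 2.44% of the counts with Takara and 0.77 to 1.33% with Lexogen.

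The genes of the cytosolic ribosome were called in both directions, more often towards Lexogen. Of 82 tested genes 45 were higher with Lexogen, 17 of them past 2-fold, and 20 were higher with Takara, 8 past 2-fold, with a median log2 ratio of -0.43. Past 2-fold these were 20.7% with Lexogen and 9.76% with Takara, against 21.7% and 23.2% of abundant genes. The share past 2-fold with Lexogen was thus near that of abundant genes, and the share with Takara was lower. At an adjusted p under 0.05 (edgeR), 46% of abundant genes were higher with Lexogen and 41.4% with Takara. The subunit gene RPS12 ranged from 1369 CPM over 1684 to 2899 CPM with Takara and from 4783 over 5837 to 7720 CPM with Lexogen, a log2 ratio of -1.76 ± 0.10 without overlap. RPL23 had medians of 1701 and 6017 CPM and a log2 ratio of -1.67 ± 0.09. RPS29 and RPL37A had log2 ratios of -0.72 ± 0.25 and -0.73 ± 0.16 with overlapping libraries, and both lost their call in the second run of sample numbers (animals 3, 7, 14, 16, 32 and 36; edgeR adjusted p = 0.846 and 0.3), as did RPS29 without animal 19 (edgeR adjusted p = 0.0553). The group made up 8.14 to 15.6% of the counts with Takara and 9.51 to 18.9% with Lexogen, lower with Takara in 11 of 12 animals. Ribosomal protein genes have many processed copies in the genome, which can take or withhold uniquely mapped reads.

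Translation factors split evenly, with 22 genes higher with Takara and 23 with Lexogen of 60 tested and a median log2 ratio of 0.08 that turned to -0.14 without the block. The elongation factor EEF2 ranged from 230.0 CPM over 378.8 to 542.5 CPM with Takara and from 739.3 over 921.0 to 1149 CPM with Lexogen, a log2 ratio of -1.31 ± 0.10. EEF1G, a subunit of another elongation factor, went the other way, with medians of 1058 and 432.9 CPM and a log2 ratio of 1.46 ± 0.16. EIF1, which takes part in the choice of the start codon, had a log2 ratio of 0.86 ± 0.12, and its relative EIF1B one of 0.05 ± 0.12 (edgeR adjusted p = 0.74).

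**Figure D4:**
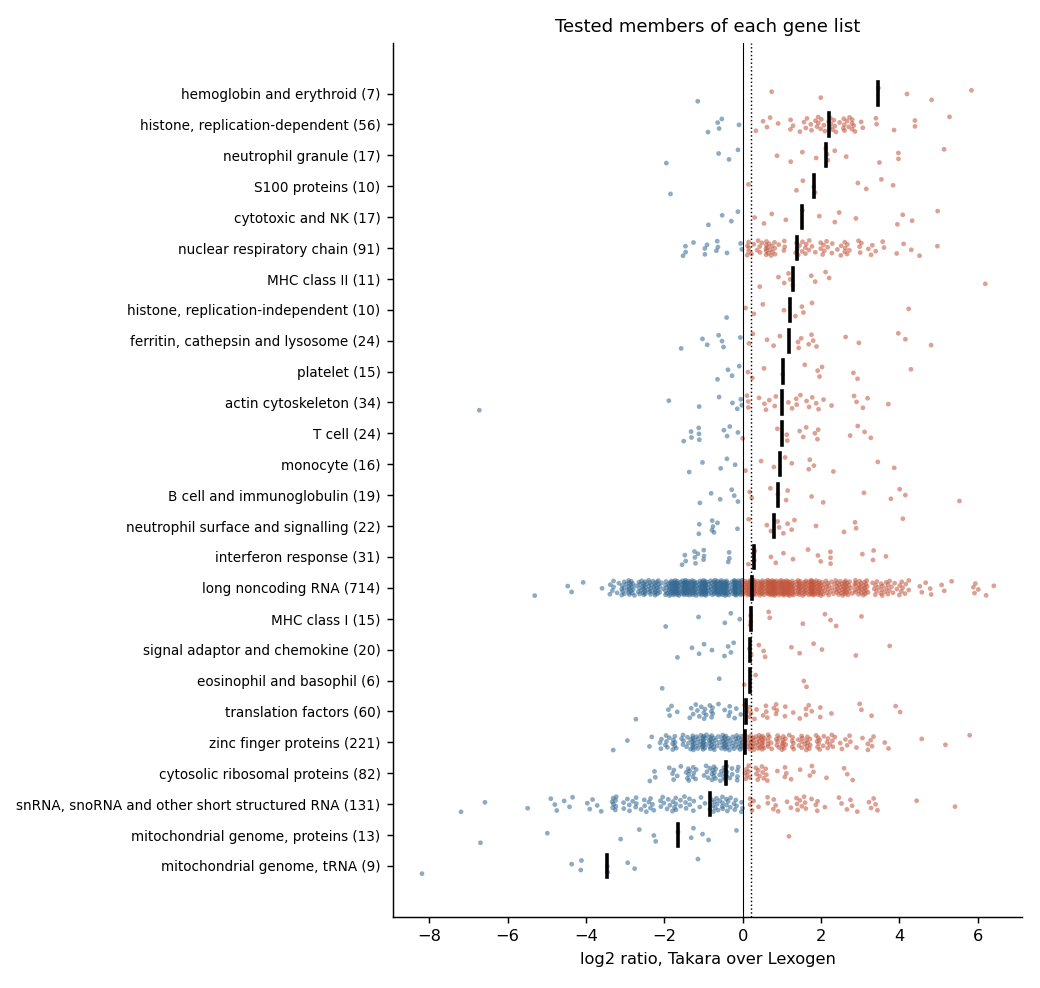
Log2 ratio of Takara over Lexogen for the tested members of 26 gene lists, ordered by median, with the number of members in brackets. Each point is a gene, thick bars mark list medians and the dotted line marks the median of all genes (0.21), with the erythroid list highest (3.47) and the mitochondrial tRNA list lowest (-3.46).

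Calgranulins and granule proteins of neutrophils leaned towards Takara. For these and the other cell types, both kits were given the same RNA of an animal, so its cells are shared within a pair. Between animals, fewer cells of a type and less RNA per cell cannot be told apart in such samples. Of 10 tested S100 genes 7 were higher with Takara, all past 2-fold, and 1 was higher with Lexogen, with a median log2 ratio of 1.83. S100A12, a calgranulin, ranged from 2995 CPM over 6657 to 13236 CPM with Takara and from 492.2 over 1841 to 4814 CPM with Lexogen. It was higher with Takara in 12 of 12 animals, at a log2 ratio of 1.85 ± 0.13, although the ranges overlapped. S100A8 and S100A9 encode the subunits of calprotectin and lie on either side of S100A12 on chromosome 3. S100A9 had medians of 1839 CPM with Takara and 428.0 CPM with Lexogen and a log2 ratio of 1.82 ± 0.19. S100A8 had medians of 2027 and 1366 CPM, and its log2 ratio was 0.15 ± 0.14 (edgeR adjusted p = 0.37), with 6 of 12 animals higher with Takara. In the second run alone it was called, at 0.55 (edgeR adjusted p = 0.0302). S100A11 had medians of 1602 and 96.1 CPM and a log2 ratio of 3.84 ± 0.15 without overlap.

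Of 17 tested granule genes 12 were higher with Takara, 10 of them past 2-fold, and 3 were higher with Lexogen, with a median log2 ratio of 2.12. HP, haptoglobin, which binds free haemoglobin, ranged from 43.4 CPM over 188.1 to 672.1 CPM with Takara and from 2.91 over 47.4 to 169.0 CPM with Lexogen, a log2 ratio of 2.12 ± 0.18. TCN1, a vitamin B12 carrier of granules, had a log2 ratio of 1.53 ± 0.13. LYZ, lysozyme, had medians of 796.1 and 767.2 CPM and a log2 ratio of -0.12 ± 0.20 (edgeR adjusted p = 0.62). CTSC, which activates granule proteases, had a log2 ratio of -0.61 ± 0.13, a call lost in the first run (edgeR adjusted p = 0.0799). Among 22 tested surface and signalling genes of neutrophils 13 were higher with Takara and 7 with Lexogen, with a median of 0.81. The receptors moved apart within this list. CSF3R, the receptor of the granulocyte growth factor, had medians of 1044 and 236.6 CPM and a log2 ratio of 1.87 ± 0.11, whereas the chemokine receptor CXCR2 had medians of 382.9 and 637.3 CPM and a log2 ratio of -0.64 ± 0.13, a call lost without the block (edgeR adjusted p = 0.0631) and in the first run (edgeR adjusted p = 0.11). IL1B, an inflammatory cytokine, had a log2 ratio of -1.12 ± 0.12.

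Red cell transcripts had the highest list median, 3.47, although only 7 of 26 listed genes were tested. Of these, 6 were higher with Takara, 5 of them past 2-fold, and 0 with Lexogen. HBB, the β chain of haemoglobin, ranged from 537.3 CPM over 1963 to 4076 CPM with Takara and from 186.9 over 473.6 to 906.6 CPM with Lexogen, which is 3.99-fold (SE of the log2 ratio 0.20). ALAS2, the erythroid enzyme that starts haem synthesis, had medians of 39.5 and 1.22 CPM and was 18.3-fold higher with Takara (SE of the log2 ratio 0.52). GYPC, a membrane glycoprotein, had a log2 ratio of 0.74 ± 0.21. CA2, a carbonic anhydrase of red cells, was the member without a call, with a median of 1.67 CPM with Takara and 3.93 CPM with Lexogen, a log2 ratio of -1.15 ± 0.83 (edgeR adjusted p = 0.24) and 9 of 12 animals higher with Lexogen. Without the animal as a block it was called towards Lexogen, at -2.36 (edgeR adjusted p = 0.00736). The list median fell to 1.85 without the animal as a block. Of 15 tested platelet genes 9 were higher with Takara and 2 with Lexogen, with a median of 1.03. The signalling subunit GNG11 had medians of 3820 and 1133 CPM and a log2 ratio of 1.59 ± 0.11, and the chemokine PF4 medians of 2694 and 1232 CPM and a log2 ratio of 1.02 ± 0.16. The coagulation factor F13A1 had a log2 ratio of -0.27 ± 0.09, a call that was lost without the block, with DESeq2, without a filter, in either run, and without animal 16, animal 19 or both (adjusted p from 0.0682 to 0.449, edgeR or DESeq2), and ITGB3 one of -0.09 ± 0.11.

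Lymphocyte genes leaned towards Takara, though not all. Of 24 tested T cell genes 13 were higher with Takara and 7 with Lexogen, against 36% and 29.1% of all genes. The share higher with Lexogen was thus near that of all genes. The median log2 ratio was 1.01. CD3D, a chain of the T cell receptor complex, ranged from 323.5 CPM over 456.3 to 795.9 CPM with Takara and from 68.0 over 119.8 to 206.3 CPM with Lexogen, a log2 ratio of 1.93 ± 0.10 without overlap. IL7R, the receptor of a lymphocyte survival factor, went the other way, from 83.5 over 162.2 to 297.8 CPM with Takara and from 207.6 over 303.8 to 758.0 CPM with Lexogen (log2 ratio -1.11 ± 0.09). The transcription factors LEF1 and BCL11B also moved apart, with log2 ratios of 1.62 ± 0.10 and -1.12 ± 0.11. Of 17 tested cytotoxic genes 10 were higher with Takara and 1 with Lexogen, with a median of 1.53. CCL5, a chemokine of effector cells, had medians of 113.1 and 16.3 CPM and a log2 ratio of 2.89 ± 0.22, and the protease CTSW one of 3.95 ± 0.28.

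Of 19 tested B cell and immunoglobulin genes 11 were higher with Takara and 3 with Lexogen, with a median log2 ratio of 0.90. IGHM, the constant region of the μ heavy chain, ranged from 6.70 CPM over 614.9 to 1143 CPM with Takara and from 0.245 over 30.9 to 130.3 CPM with Lexogen, a log2 ratio of 4.16 ± 0.28. Both kits set animals 3 and 14 apart: these had 6.70 and 26.8 CPM with Takara and 0.291 and 0.245 CPM with Lexogen, where the other 10 animals had 471.2 to 1143 and 16.1 to 130.3 CPM. MS4A1 and JCHAIN were not low in these animals. MS4A1 had 322.3 and 266.1 CPM with Takara and 441.0 and 625.3 CPM with Lexogen. JCHAIN had 425.2 and 337.6 CPM with Takara and 946.5 and 1072 CPM with Lexogen. BANK1 was at its lowest in animal 14 with Takara (100.5 CPM) and in animal 3 with Lexogen (141.5 CPM). MZB1 had 350.2 and 275.9 CPM with Takara, but 1.02 and 1.72 CPM with Lexogen, below its Lexogen median of 4.28 CPM. JCHAIN, which joins secreted antibody units, was higher with Lexogen, with medians of 310.2 and 594.2 CPM and a log2 ratio of -1.09 ± 0.16. MS4A1 (CD20) had a log2 ratio of -0.21 ± 0.14 (edgeR adjusted p = 0.2), and the B cell adaptor BANK1 one of -0.57 ± 0.12.

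Of 11 tested MHC class II genes, which present antigen to T cells, 9 were higher with Takara and 0 with Lexogen, with a median of 1.28. BOLA-DRB3, a β chain of the cattle DR molecule, ranged from 574.7 CPM over 978.2 to 1628 CPM with Takara and from 147.3 over 313.8 to 459.0 CPM with Lexogen, a log2 ratio of 1.85 ± 0.10. BOLA-DRA and the invariant chain CD74 had log2 ratios of 1.06 ± 0.09 and 1.21 ± 0.12. The 15 MHC class I genes had a median of 0.21, with 7 higher with Takara and 3 with Lexogen. TAPBP, which loads peptides onto class I, had medians of 1337 and 292.2 CPM and a log2 ratio of 2.24 ± 0.12. The class I heavy chains BOLA and JSP.1 had log2 ratios of 0.19 ± 0.20 and -0.45 ± 0.12, the latter without a call under the fit without the block (edgeR adjusted p = 0.256), with DESeq2 and in the second run, and reads of such closely related and variable genes can be split or lost in counting. Of 16 tested monocyte genes 10 were higher with Takara and 4 with Lexogen (median 0.94), among them LST1 with a log2 ratio of 3.45 ± 0.14 and the protease CTSS with -1.02 ± 0.08. AIF1 had a log2 ratio of 1.09 ± 0.09 and LGMN one of 0.47 ± 0.10, the latter without a call in the second run (edgeR adjusted p = 0.122). Of 24 genes of ferritin, cathepsins and the lysosome 13 were higher with Takara and 5 with Lexogen (median 1.18). FTH1, the ferritin heavy chain, had medians of 4524 and 1625 CPM and a log2 ratio of 1.43 ± 0.15, well below that of FTL, and the protease CTSB one of 1.76 ± 0.15.

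The 31 tested interferon response genes had a median of 0.30, with 15 higher with Takara and 12 with Lexogen. EPSTI1, SAMD9 and IFIT2 were higher with Lexogen, at log2 ratios of -1.48 ± 0.09, -1.20 ± 0.10 and -0.99 ± 0.09. Signal adaptors and chemokines had 6 genes in each direction of 20 tested (median 0.20). TSC22D3, a glucocorticoid-induced regulator, had medians of 1977 and 493.5 CPM and a log2 ratio of 2.03 ± 0.08, while the antiproliferative gene BTG1 and the NF-κB inhibitor NFKBIA had -1.11 ± 0.07 and -1.29 ± 0.10. TXNIP had 0.58 ± 0.08. Only 6 of 9 eosinophil and basophil genes were tested, with 1 call in each direction, and the receptor CCR3 had a log2 ratio of 0.04 ± 0.09.

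Replication-dependent histone genes, whose messages end in a stem loop and mostly lack a poly(A) tail, were higher with Takara. Of 56 tested genes 40 were higher with Takara, 26 of them past 2-fold, and 3 with Lexogen, with a median log2 ratio of 2.22, and of 1.22 without the animal as a block. H1-2, a linker histone, ranged from 262.9 CPM over 414.6 to 782.1 CPM with Takara and from 86.9 over 107.0 to 184.6 CPM with Lexogen, a log2 ratio of 1.90 ± 0.11. H1-3 and H1-4 had log2 ratios of 2.73 ± 0.22 and 2.66 ± 0.21, and H2BC21 went the other way at -0.60 ± 0.11. The 10 replication-independent histone genes had a median of 1.20, and of 0.76 without the block. H1-10, a linker histone, had medians of 958.8 and 59.7 CPM and a log2 ratio of 4.24 ± 0.29, H2AZ2 had 1.06 ± 0.11, and the replacement histones H3-3A and H3-3B had -0.41 ± 0.07 and 0.07 ± 0.09. Many replication-dependent histone genes are near-identical copies, and reads that map to several of them were not counted.

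Short structured RNAs without a poly(A) tail, such as snRNAs and snoRNAs, leaned towards Lexogen. Of 2688 annotated genes only 131 were tested, of which 66 were higher with Lexogen, 50 of them past 2-fold, and 22 were higher with Takara, with a median of -0.84. By biotype, 37 of 63 tested snoRNAs were higher with Lexogen and 6 with Takara (median -1.74), and 25 of 55 snRNAs were higher with Lexogen and 10 with Takara (median -0.51). The most abundant snRNA rows varied widely among animals. LOC112442851 ranged from 5.75 CPM over 865.0 to 4040 CPM with Takara and from 4.26 over 1621 to 3142 CPM with Lexogen, at a log2 ratio of -0.17 ± 0.30 (edgeR adjusted p = 0.62). LOC112442110 and LOC112442853 had -1.36 ± 0.19 and -0.72 ± 0.21, the latter without a call when the block was left out (edgeR adjusted p = 0.0928) and in the second run (edgeR adjusted p = 0.649), and LOC112448627 had 0.00 ± 0.28. Such genes have near-identical copies, and their values are uncertain.

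Of the 714 tested long noncoding RNAs 199 were higher with Takara and 188 with Lexogen, with a median of 0.23. Past 2-fold, 112 (15.7%) were higher with Takara and 121 (16.9%) with Lexogen, against 21.4% and 12.6% of all genes. They summed to 1.49 to 3.42% of the counts with Takara and to 3.35 to 6.5% with Lexogen, higher with Lexogen in all 12 animals. A large part of this sum, and of its difference between the kits, was LOC112444863, nearly all of whose reads lay on the opposite strand. That locus alone had medians of 10038 CPM with Takara and 31815 CPM with Lexogen. The sum without it was not computed. Their median was 0.59 on sense counts and -0.21 without the block. LOC132345101, inside the span of ELMO1, had medians of 57.5 and 582.0 CPM and a log2 ratio of -3.30 ± 0.18, and LOC132342211, inside that of TRPS1, -2.37 ± 0.12. LOC104974750, inside that of GSE1, had 1.70 ± 0.21. The 221 zinc finger genes had a median of 0.05 (-0.36 without the block), with 54 higher with Takara and 63 with Lexogen, but summed to 0.344 to 0.395% of the counts with Takara and to 0.487 to 0.711% with Lexogen, without overlap. The 4 most abundant were all higher with Lexogen, among them ZNF292 at -1.92 ± 0.11 and ZNF638 at -1.74 ± 0.08, followed by ZNF207 and ZNF106 at -1.38 and -1.14.

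The length of a gene in the genome ran alongside its log2 ratio. Over 11103 protein-coding genes, Spearman's rho between the annotated span and the log2 ratio was -0.44, and over the 1796 abundant ones -0.50, as a description across genes, which are not independent replicates. In the quintile with the shortest spans, 201 to 7597 bp, the median log2 ratio was 1.49, and 44.7% of the genes were past 2-fold higher with Takara and 5.09% with Lexogen. The medians of the following quintiles were 0.82, 0.23 and -0.25. In the quintile with the longest spans, from 77022 bp upwards, the median was -0.69, with 5.63% past 2-fold towards Takara and 25.2% towards Lexogen. Among abundant genes the median went from 1.07 in the shortest to -1.10 in the longest quintile. The span includes introns, and the length and base composition of the transcripts were not analysed here. Whether the spans of their members account for the medians of the gene lists was not tested.

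The chromosomes also differed. The protein-coding genes of chromosomes 25 and 29 had medians of 1.24 (429 genes) and 1.22 (306 genes), followed by 0.90 on chromosome 18 and 0.83 on chromosome 23. The lowest medians were -0.40 on chromosome 9, -0.38 on chromosome 20, -0.37 on chromosome 6 and -0.33 on chromosome 12. On chromosome 25, 40.6% of the genes were past 2-fold higher with Takara and 5.36% with Lexogen, compared with 5.58% and 21.1% on chromosome 9. Whether the spans of the genes account for the order of the chromosomes was not tested.

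**Figure D5:**
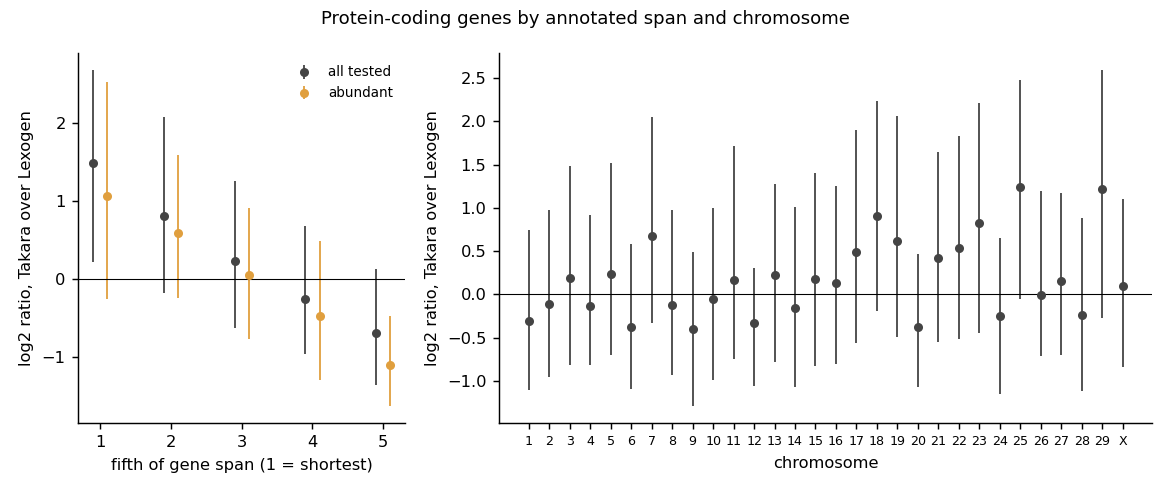
Log2 ratio of Takara over Lexogen for protein-coding genes by quintile of annotated span (left, all tested and abundant genes) and by chromosome (right). Points are medians over genes and bars run from the lower to the upper quartile. The median falls from 1.49 to -0.69 over the quintiles, and chromosomes 25 and 29 stand highest.

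Among abundant genes a median of 99.6% of the Takara counts and 99.3% of the Lexogen counts of a gene lay on its annotated strand. Fewer than 50% did so for 9 genes with Takara and 10 with Lexogen, of 1842 in the annotation, and 7 were the same genes. These were CERKL, EPB41L1, KEH36_t22, LOC112444863, LOC132345481, ND6 and TXNDC11. ND6 is the mitochondrial protein gene encoded on the strand opposite to the others. It was higher with Lexogen, at medians of 450.0 and 1049 CPM and a log2 ratio of -1.31 ± 0.12.

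Libraries of different animals resembled each other more with Takara. Across all tested genes, Pearson's r of log2 CPM between animals had a median of 0.95 within Takara and 0.84 within Lexogen, and of 0.71 between the kits within an animal. Over abundant genes the medians were 0.92, 0.88 and 0.37. Between the kits and between different animals the medians were close to this, at 0.70 over all and 0.32 over abundant genes. Without centring, the Takara library correlated best with the Lexogen library of its own animal in 3 animals over all genes. Over abundant genes it did so in 4. The standard deviation of log2 CPM over the 12 animals had a median over genes of 0.38 with Takara and 0.91 with Lexogen, and was larger with Lexogen for 91.8% of the genes. For abundant genes the medians were 0.29 and 0.43. For abundant genes past 2-fold higher with Takara they were 0.29 and 0.73, and for those past 2-fold higher with Lexogen 0.32 and 0.36. Without animals 16 and 19 the within-Lexogen median r was 0.85 over all genes and 0.89 over abundant ones, and the median standard deviations with Lexogen were 0.88 over all and 0.42 over abundant genes. The abundant genes on either side also differed in how many counts stood behind them: the former had a median of 63.7 CPM with Lexogen, the latter 87.4 CPM with Takara.

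Whether the kits ordered the animals alike was tested for the 12 genes with the highest mean CPM, as the correlation of log2 CPM over the 12 animals with a two-sided permutation test of 100000 resamples and Benjamini-Hochberg adjustment over the 12 genes. SDS, an enzyme that breaks down serine, ranged from 3102 CPM over 9650 to 19269 CPM with Takara and from 576.1 over 2076 to 5210 CPM with Lexogen. It was higher with Takara in all animals, at a log2 ratio of 2.22 ± 0.09, and its levels followed each other with r = 0.97 and rho = 0.99 (permutation p = 1e-05 for both, the smallest that the resamples can give, adjusted to 0.00012). Without the 2 animals farthest from the Takara median r was 0.96, and within the runs of sample numbers it was 0.97 and 0.98. LOC508666 had r = 0.83 and rho = 0.90 (permutation p = 0.0002 and 0.00014, adjusted 0.0012 and 0.00084), 0.85 without the farthest animals, and 0.79 and 0.81 within the runs. LOC112444863 had r = 0.84 and rho = 0.72 (permutation p = 0.0014 and 0.0107, adjusted 0.0056 and 0.0428), but r = 0.11 within the first run against 0.89 within the second. LOC783680 had r = 0.78 (permutation p = 0.00469, adjusted 0.0141) with rho = 0.47 (permutation p = 0.127, adjusted 0.305). Without animals 14 and 7 its r was 0.23, so its relation over all 12 animals leaned on these. Within the first run, which holds neither of them, r was 0.55, and within the second it was 0.90. The other 8 genes did not pass the threshold, and r lay between -0.46 for ACTB and 0.44 for TMSB10. For ACTB rho was -0.50 (permutation p = 0.129 for r and 0.106 for rho, adjusted 0.305 for both).

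No gene with at least 10 CPM on average with Takara was at 3 counts or fewer over the 12 Lexogen libraries together, whereas 10 genes were near absent with Takara by the same rule. They were KRT8, KRT18, CLDN6, LOC528262, LOC516378, CLDN4, SLC39A4, POU5F1, FOLR1 and ZFP42. KRT8 had 38404 counts over the Lexogen libraries and 2 over the Takara libraries, and KRT18, its partner in epithelial filaments, had 13767 and 0. All 10 rested on animals 16 and 19. Without these animals 0 genes were near absent with either kit. The median of KRT8 over the 12 Lexogen libraries was 5.46 CPM. What the extra transcripts of the Lexogen libraries of animals 16 and 19 came from was not tested.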

How the data were processed

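Whole blood RNA of 12 calves, taken at 6AM under the treatment Normal, was compared between 12 Takara and 12 Lexogen libraries. The authors deposited STAR's raw gene counts (STAR 2.7.10b on ARS-UCD2.0, after Trimmomatic 0.39), which take uniquely mapped reads and are not normalised, as unstranded, sense and antisense columns (quality reports: FastQC 0.11.9, MultiQC 1.14). Tool versions come from the submitters' processing notes. The unstranded counts of 32637 genes below 4 totals were used. Of the gene names, 30230 matched RefSeq's ARS-UCD2.0 table, which gave biotypes and spans. It holds no transcripts, so transcript length, GC content and exon number, planned as annotation features, were replaced by biotype, gene span and chromosome, and no sequence was printed.

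After removal of 4 rRNA rows, edgeR 4.0.16 (R 4.3.3) was run with filterByExpr by kit, TMM normalisation, and a robust quasi-likelihood test with the animal as a block. Standard errors were derived from this test, as the absolute log2 ratio divided by the square root of the F statistic. glmTreat tested against 2-fold. Adjustment (Benjamini-Hochberg) covered all 12055 genes. The test was run on simulated counts in which few genes changed, in random directions. In the data most genes were called, so that run does not check the calls under such wide changes. Counts per library limit the precision, and reads, not molecules, were counted. Without gene descriptions, the lists hold symbols and biotypes only. The libraries of a pair come from the RNA of the same animal. With levels centred within kits, each Takara library correlated best with the Lexogen library of its own animal in 12 of 12 animals, and r was over 0.1 in 11. Sample numbers form 2 runs of 6 animals each, treated as a possible batch.

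The members and the 26 gene lists were chosen with earlier results of these data known. Lists are described by counts and medians, without a test. Named genes were the 12 with the highest mean CPM; the 10 highest and 10 lowest log2 ratios among abundant genes past 2-fold, with a name and the same direction in 12 of 12 animals; the 4 most abundant tested genes of each list; and up to 4 near-absent genes per kit. Some genes named by this rule are not reported here. Other genes were chosen after their values were seen. Near absent meant a mean of at least 10 CPM with a kit and at most 3 counts over the other kit's libraries. Correlations used log2(CPM + 0.5). DESeq2 1.42.0, sense counts, scaling, filters, equal depth (4365643 counts), the sample-number runs and left-out animals were alternatives. Heat stress libraries were not used here.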

Additional observations from a re-analysis of the deposited data

How the results depend on the processing

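The numbers of genes called towards each kit, at 5% and past 2-fold and among abundant genes, stayed within 1.5 times of those reported under the alternatives run, with 2 exceptions. DESeq2 called 6549 genes higher with Takara at 5%, on 23134 genes, and the 6 animals of the second run of sample numbers gave 948 genes past 2-fold higher with Lexogen, with fewer samples. Without the replicate block, that is without pairing by animal, 3642 genes were higher with Takara and 3978 with Lexogen, and 1897 and 1655 were past 2-fold. The number of genes near absent with Takara was 9 on sense counts and 0 without animals 16 and 19, an alternative chosen after seeing the data. Without 1 animal each (14, 16 or 19), 2491 to 2644 genes were past 2-fold higher with Takara and 1343 to 1605 with Lexogen. Of 1596 values of named genes under the alternatives, 1530 kept their direction and side of the threshold, 35 lost and 9 gained a call, and 22 changed sign, of which 20 had no call on either side. The others were LOC112444863, at 2.73 on sense counts, and LYZ, at 0.33 in the first run (edgeR adjusted p = 0.0175). Without a call, the log2 ratio turned for IL5RA (-0.13 without the block and -0.13 in the first run), CCR3 (-0.0012 with library totals and -0.10 on sense counts), ITGB3 (0.085 with DESeq2, 0.086 in the second run and, without 1 animal each, from -0.17 to 0.017), LOC112442851 (0.018), LOC783680 (0.019) and LYZ (0.052) with DESeq2, MS4A1 (0.20) and S100A8 (-0.18) in the first run, and GATA2 (0.74) in the second. For LOC112448627, at 0.00, it was 0.40 without the block, 0.17 with DESeq2, 0.083 without a filter, 0.80 in the second run, from -0.059 to 0.072 without 1 animal each, and 0.018 without animals 16 and 19. The cause was not tested. Without the block the medians of long noncoding RNAs, translation factors, zinc finger genes and eosinophil and basophil genes turned negative, as did translation factors and eosinophil and basophil genes in the first run and zinc finger genes without animal 14. List medians moved by more than their spread over animals in 14 of 338 cases. The low counts of rare genes and the wide spread of the Lexogen libraries limit what could be called.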
